A study of Homo sapiens with 3 samples.

Results

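The 41 genes described here are the nuclear genes of respiratory complexes II, III and IV and of ATP synthase (complex V), together with cytochrome c, the mobile electron carrier. They were taken as a list written by complex, whose rule uses no count, and were matched by Entrez GeneID among the 25702 genes of the deposited count tables. The list holds 4 genes of complex II, 9 of complex III, 11 of complex IV, 16 of ATP synthase and CYCS. All 41 were found, and all 41 passed the low-count filter (10 counts or more in 1 of the libraries), which left 12879 genes for the tests. The symbols of the ATP synthase genes are the older ones, for example ATP5A1 for ATP5F1A and ATP5G1 for ATP5MC1.

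Molm13 cells are a human line of acute myeloid leukemia, grown from peripheral blood, in which the receptor tyrosine kinase gene FLT3 bears an internal tandem duplication (FLT3-ITD). Asynchronous cells in serum-containing RPMI medium were treated for 6 h with the vehicle DMSO, with 50 nM pyrvinium or with 100 nM pyrvinium, a cationic drug first used against pinworms. RNA was sequenced from 1 library per condition, 3 libraries in all, from 1 cell line. Total counts were 23165771 for DMSO, 22677038 for 50 nM and 24075123 for 100 nM. No difference below has a replicate check. A test on reads compares the libraries, not the conditions, and the 95% intervals in square brackets cover counting error only. All log2 fold changes are of counts scaled to library size with edgeR's TMM method, with 0.5 counts added per library. A gene is called lower or higher where its 95% interval lies wholly on one side of 0, with no adjustment for the number of genes. In bulk RNA, fewer cells of a type and less RNA per cell cannot be told apart. The 10 myeloid markers summed to 30840 to 35023 counts per library, with no marker of them under 116 counts. The 12 markers of T, B, erythroid and fibroblast cells summed to 34 to 54 counts, with CD3E and ALAS2 at 0 in every library. Of these 12, CD3D had 26, 18 and 13 counts with DMSO, 50 nM and 100 nM. HBB had 0, 16 and 0 counts in the same order, present in the 50 nM library alone.

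Complex II oxidises succinate and passes electrons to ubiquinone, complex III passes them on to cytochrome c, and complex IV reduces oxygen. Complexes III and IV pump protons, and ATP synthase uses the returning protons to turn a ring of c subunits and make ATP. Complex II is built from nuclear genes alone, whereas complexes III, IV and ATP synthase also hold subunits made from mitochondrial DNA, so that their assembly draws on both genomes.

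At 100 nM the nuclear subunit genes were mostly a little lower than with DMSO, with the lowest median in ATP synthase and the one nearest 0 in complex II. Of the 41 genes, 23 were lower and 2 were higher beyond the counting interval, against 25.3% lower and 24% higher of all genes tested. Their median log2 fold change was -0.079, against -0.002 over all genes tested. At 50 nM, 7 were lower and 10 were higher, against 18.5% and 18.6% of all genes tested, and the median was 0.019. Between the doses, 28 were lower at 100 nM than at 50 nM and 1 was higher, against 14.3% and 12.5% of all genes tested, with a median of -0.085. Abundant genes have narrower intervals and are called more often. Of the 4971 nuclear genes that averaged 1000 counts or more, as each member does, 37.9% were lower and 30.4% higher at 100 nM. At 50 nM these shares were 26.5% and 27.3%, and between the doses 25.6% and 16.9%. The comparisons share libraries, so their counts are not independent of each other.

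The differences were small. No member passed 2-fold with an adjusted p of at most 0.05 in any of the 3 comparisons, which 2.2% of all genes did at 100 nM, 0.955% at 50 nM and 0.497% between the doses. The largest fold of a member against DMSO was 1.15 with 50 nM and 1.19 with 100 nM. A log2 fold change of 0.32 in either direction was passed by 0 members and 29.9% of all genes at 100 nM. At 50 nM 0 members and 20% of all genes passed it, and between the doses 1 member, COX6B1, and 14.2% of all genes. All genes include many with low counts. Of the 4971 nuclear genes that averaged 1000 counts or more, as each member does, 13.4% passed it at 100 nM and 4.37% at 50 nM. Between the doses 1.09% of them did, against 2.44% of the members. Past 2-fold lay 13, 2 and 0 of these 4971 in the same order. The reads of all 41 genes together made up 1.183% [1.179, 1.187] of the counts with DMSO, 1.192% [1.188, 1.197] with 50 nM and 1.132% [1.128, 1.136] with 100 nM, with Wilson score intervals. With the spread between cultures assumed at a coefficient of variation of 0.05, edgeR's exact test called 0 members in each of the 3 comparisons after adjustment. On the scaled counts their sum was -0.065 [-0.072, -0.057] at 100 nM against DMSO and 0.015 [0.008, 0.023] at 50 nM.

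Short transcripts as a class were lower at 100 nM, and most of the members are short and abundant, which sets what their counts can be read against. Among the 696 nuclear genes that averaged 1000 counts or more and had an annotated length of at most 1500 bases, 50.9% were lower at 100 nM than with DMSO and 20.3% were higher, and the median log2 fold change was -0.076. The 29 members in that class gave 19 lower and 1 higher, with a median of -0.093. Among the 4275 nuclear genes with the same minimum count that are over 1500 bases long the median was -0.011, and the 12 members of that length had a median of -0.027. Between the doses the short class had 40.8% lower and 11.1% higher with a median of -0.057, and the 29 short members had 21 lower and 0 higher with a median of -0.099. With DMSO as reference, 10.6% of the short class passed a log2 fold change of 0.32 at 100 nM.

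When every gene was centred on the median of genes of like length and level, 13 members were lower and 7 were higher at 100 nM against DMSO, and the median over the 41 was -0.019. In the same comparison the median of ATP synthase was -0.066, that of complex II 0.041 and that of complex IV -0.008. Between the doses 16 members were lower and 3 higher after the centring. Over the 41 members the log2 fold change at 100 nM had a Spearman correlation of 0.32 with annotated length and 0.37 with the level in DMSO, and at 50 nM -0.01 and 0.02. The 41 points come from the same pair of libraries and are given as a description. Why short transcripts were lower was not tested.

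Levels between genes are compared here as CPM (counts scaled to the TMM library size in the usual way) per kilobase of annotated length. With DMSO the members ran from 33.3 for SDHC to 859.8 for ATP5B, with a median of 185. The lowest level in any library was 31, in ATP synthase at 100 nM. By complex the DMSO medians were 120.3 for complex II, 153 for complex III, 368 for complex IV and 189 for ATP synthase, and CYCS stood at 93.6. At 100 nM the medians were 118, 159, 342 and 173 in the same order, with CYCS at 90.1. By these medians complex IV was the most abundant per length and complex II the least of the 4 complexes in the DMSO, 50 nM and 100 nM libraries. Each member had at least 1396 counts in each library, so that the median width of a counting interval to either side was 0.055 on the log2 scale.

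Complex II genes were close to their DMSO level at 100 nM and in part higher at 50 nM. SDHA, the flavoprotein that oxidises succinate (hg19 chr5:218356-256815, plus strand, 15 exons), had 284, 300.4 and 285 CPM in the DMSO, 50 nM and 100 nM libraries. The 50 nM library was the highest and the other two were alike, with log2 fold changes against DMSO of 0.082 [0.033, 0.13] at 50 nM and 0.0065 [-0.042, 0.056] at 100 nM. SDHD, a membrane anchor of the complex (chr11:111957571-111966518, plus strand, 4 exons), had 204, 222 and 202 CPM. It too was highest at 50 nM, by 0.12 [0.063, 0.18], and stood at -0.013 [-0.071, 0.045] at 100 nM.

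The iron-sulfur subunit SDHB (chr1:17345217-17380665, minus strand, 8 exons) had 140.5, 142 and 134 CPM in the same order. It was lowest at 100 nM, at -0.071 [-0.14, -0.00053], an interval that only just left out 0 and that no longer did so with DESeq2 size factors, with total counts or with a filter of 100 counts. SDHC, the other membrane anchor (chr1:161284166-161334541, plus strand, 6 exons), had 95, 97.3 and 93.7 CPM. Neither dose left the counting interval, at 0.034 [-0.052, 0.12] at 50 nM and -0.021 [-0.11, 0.065] at 100 nM. In all, 1 of the 4 complex II genes was called lower with 100 nM and none higher (median -0.017), none lower and 2 higher with 50 nM (median 0.058), and 3 lower and none higher between the doses (median -0.083). Over all genes the shares were 25.3% and 24% at 100 nM, 18.5% and 18.6% at 50 nM, and 14.3% and 12.5% between the doses.

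In complex III, 3 of the 5 small accessory subunits were lower at 100 nM, while the core protein UQCRC2 was higher. UQCR10, a small membrane subunit (chr22:30163358-30166402, plus strand, 2 exons), had 106, 109 and 90.9 CPM with DMSO, 50 nM and 100 nM. Only the 100 nM library was low, at -0.22 [-0.30, -0.13] against DMSO, and the 50 nM library stood at 0.045 [-0.036, 0.13]. UQCR11, another small subunit (chr19:1597154-1605483, minus strand, 3 exons), had 182, 159.6 and 159 CPM. Here both doses were low by the same amount, at -0.19 [-0.25, -0.12] and -0.19 [-0.25, -0.13], and the doses differed by -0.0045 [-0.07, 0.061].

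UQCRH, the hinge protein beside cytochrome c1 (chr1:46769380-46782448, plus strand, 4 exons), had 200.3, 199 and 178 CPM. It was low at 100 nM alone, at -0.17 [-0.23, -0.11] against -0.012 [-0.072, 0.047] at 50 nM. A near-identical gene, UQCRHL, was listed with 2141, 1963 and 2205 counts, and reads of the pair can be split between them. UQCRH and UQCRHL summed gave -0.118 [-0.168, -0.069] at 100 nM and -0.037 [-0.086, 0.013] at 50 nM.

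UQCRC2, a core protein of the matrix side (chr16:21964609-21994668, plus strand, 14 exons), had 257, 274 and 269 CPM. Both doses were above DMSO, at 0.095 [0.043, 0.15] and 0.07 [0.019, 0.12]. CYC1, the heme-bearing cytochrome c1, had 540.1, 552 and 538 CPM, with -0.0044 [-0.04, 0.031] at 100 nM. UQCRB, which lies near the ubiquinone site, had 626, 592 and 618, the lowest at 50 nM. Its log2 fold change was -0.08 [-0.11, -0.046] at 50 nM and -0.018 [-0.051, 0.015] at 100 nM, and it was the 1 member called higher at 100 nM than at 50 nM, by 0.062 [0.028, 0.096].

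The remaining complex III genes are UQCRC1, the second core protein, the Rieske iron-sulfur protein UQCRFS1, and UQCRQ. Their log2 fold changes at 100 nM lay between -0.076 and -0.033, and UQCRFS1 was the 1 of them called lower. By role, 3 of the 5 small subunits were lower with a median of -0.169, against 0 of 2 core proteins with a median of 0.017 and 1 of 2 redox subunits with a median of -0.04. The roles differ in length. The 3 small genes called lower have 527 to 1335 annotated bases, and the other small genes and the core genes have 1585 to 4419. Whether the difference follows role or length was not tested. Over the 9 genes, 4 were lower and 1 higher at 100 nM (median -0.036), and 2 and 2 at 50 nM (median 0.027). The shares of all genes tested were 25.3% and 24% at 100 nM, and 18.5% and 18.6% at 50 nM. Cytochrome c itself, CYCS (chr7:25158270-25164980, minus strand, 3 exons), had 518, 522 and 499 CPM and was -0.055 [-0.092, -0.018] at 100 nM and 0.011 [-0.026, 0.047] at 50 nM, so that the 100 nM library was slightly low.

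Complex IV held the member that moved most between the doses. COX6B1, a subunit of the intermembrane side that joins the partners of the complex IV dimer (chr19:36139125-36149686, plus strand, 4 exons), had 275, 295 and 236 CPM. It was highest at 50 nM and lowest at 100 nM, with log2 fold changes against DMSO of 0.099 [0.05, 0.15] and -0.22 [-0.28, -0.17]. The doses differed by -0.32 [-0.37, -0.27], and per length the levels were 466, 499 and 399. It was the 1 member with intervals on opposite sides of 0 at the 2 doses. The share of all genes tested that did so was not counted.

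COX7B, a small membrane subunit (chrX:77154961-77160881, plus strand, 3 exons), had 85.3, 78.1 and 78.1 CPM. Both doses were low by a like amount, at -0.13 [-0.22, -0.034] and -0.13 [-0.22, -0.037]. COX7A2, the broadly expressed isoform of the small membrane subunit VIIa (chr6:75947391-75953644, minus strand, 4 exons), had 278, 276 and 258 and was low at 100 nM alone, at -0.11 [-0.16, -0.058] against -0.0062 [-0.057, 0.044].

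Its relative COX7A2L (chr2:42577642-42588356, minus strand, 3 exons), known for joining complexes III and IV into supercomplexes, had 121, 128 and 128 CPM. It was called higher at both doses, by 0.081 [0.0055, 0.16] and 0.08 [0.006, 0.15], intervals that only just left out 0. COX4I1 (chr16:85833196-85840608, plus strand, 5 exons), the common form of the regulatory subunit IV, had 345, 349.6 and 347 and COX5B (chr2:98262521-98264657, plus strand, 4 exons), which binds zinc, had 189, 185 and 184. Neither differed from DMSO beyond its interval, COX4I1 standing at 0.011 [-0.033, 0.056] and COX5B at -0.034 [-0.095, 0.027] at 100 nM.

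The other 5 genes of complex IV, COX5A, COX6A1, COX6C, COX7C and COX8A, lay between -0.093 and -0.039 at 100 nM, and COX5A and COX7C were called lower. COX8A was higher at 50 nM, by 0.14 [0.071, 0.22], and stood at -0.068 [-0.14, 0.0062] at 100 nM. In all, 5 complex IV genes were lower and 1 higher at 100 nM, 1 and 3 at 50 nM, and 6 and 0 between the doses, with medians of -0.079, -0.006 and -0.055. In the same order, 25.3%, 18.5% and 14.3% of all genes tested were lower, and 24%, 18.6% and 12.5% were higher. The tissue-specific forms COX4I2, COX6A2, COX7A1, COX7B2 and COX8C were at 0 counts in every library, and COX6B2 had 1 count in the DMSO library and 0 in the others. A count of 0 allows a share of up to 1.25e-05% to 1.32e-05% of a library.

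ATP synthase was the complex with the lowest median at 100 nM. With the counts of its genes summed it was -0.078 [-0.09, -0.067], which overlapped complex IV at -0.071 [-0.088, -0.054]. All 16 genes had a log2 fold change under 0 at 100 nM against DMSO, as 50.4% of all genes and 68.2% of the 696 short abundant genes did. However, ATP5A1 lay above 0 with a filter of 100 counts, and ATP5A1, ATP5B, ATP5G2 and ATP5O did after centring on genes of like length and level. In the main comparison 12 of the 16 (75%) were lower beyond the interval and 0 higher, with a median of -0.155. The shares called were 25.3% and 24% of all genes tested, and 37.9% and 30.4% of nuclear genes averaging 1000 counts or more. At 50 nM 4 were lower and 3 were higher (25% and 18.8%, against 18.5% and 18.6% of all genes tested), with a median of -0.036. Between the doses 13 were lower and 0 higher (14.3% and 12.5% of all genes tested), with a median of -0.115. There all 16 lay under 0, as 49.8% of all genes and 73% of the short abundant genes did, though ATP5C1 and ATP5D lay above 0 after the centring.

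Within ATP synthase the catalytic head differed by subunit. ATP5A1 and ATP5B code for the alpha and beta subunits, which form the catalytic sites. ATP5A1 (chr18:43664110-43684199, minus strand, 13 exons) had 1062, 1119 and 1061 CPM, and ATP5B (chr12:57031959-57039852, minus strand, 10 exons) had 1585, 1639 and 1573. Both were highest at 50 nM, by 0.075 [0.05, 0.10] and 0.049 [0.028, 0.069], and at 100 nM stood at -0.0018 [-0.027, 0.024] and -0.011 [-0.031, 0.01]. The genes of the central stalk, ATP5C1 (gamma), ATP5D (delta) and ATP5E (epsilon), were lower at 100 nM, from -0.24 for ATP5D to -0.087 for ATP5C1. The head and central stalk together gave 3 of 5 genes lower, with a median of -0.087. ATP5A1 and ATP5B have 1987 and 1843 annotated bases, and the central stalk genes have 439 to 1148. Whether the difference follows subunit or length was not tested.

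The peripheral stalk, which holds the head still against the turning ring, gave 3 of 4 genes lower with a median of -0.116. ATP5J, coupling factor 6 of the stalk (chr21:27096791-27107965, minus strand, 4 exons), had 152, 142 and 129 CPM. The levels were in the order DMSO, 50 nM, 100 nM from high to low, with -0.10 [-0.17, -0.032] at 50 nM and -0.24 [-0.31, -0.17] at 100 nM. Of its annotated exon bases, 561 (43.3%) are shared with GABPA on the opposite strand, whose own counts were 1329, 1395 and 1603. The strand setting of the counting is not given in the sources used here, so reads of the pair may not be fully separated. ATP5O (chr21:35275757-35288158, minus strand, 7 exons), the subunit that ties the stalk to the head, had 334, 344 and 324 CPM. Neither dose differed from DMSO beyond the interval, at 0.042 [-0.0038, 0.087] and -0.043 [-0.089, 0.0023]. ATP5F1 and ATP5H stood at -0.11 and -0.12 at 100 nM, both lower.

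The 3 small membrane genes ATP5I (subunit e), ATP5J2 (subunit f) and ATP5L (subunit g), which shape the dimer of the enzyme in the cristae, were all lower at 100 nM, from -0.19 to -0.17. At 50 nM their log2 fold changes lay between -0.054 and 0.059, and 0 of the 3 was called. The inhibitor gene ATPIF1, whose protein blocks the enzyme when it runs backwards, was lower at 100 nM, at -0.14 [-0.24, -0.034], and stood at -0.083 [-0.19, 0.023] at 50 nM.

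The c ring is coded by 3 genes, ATP5G1, ATP5G2 and ATP5G3, whose precursors differ in the import sequence but give the same mature protein. The last 75 codons of each coding sequence are given from the GENCODE 44 annotation on GRCh37, 5′ to 3′ in the sense of the gene, because they show how reads of the 3 genes can be told apart although the encoded 75 residues are identical. Capitals mark the 52 of 225 positions at which the 3 genes are not all alike.
ATP5G1: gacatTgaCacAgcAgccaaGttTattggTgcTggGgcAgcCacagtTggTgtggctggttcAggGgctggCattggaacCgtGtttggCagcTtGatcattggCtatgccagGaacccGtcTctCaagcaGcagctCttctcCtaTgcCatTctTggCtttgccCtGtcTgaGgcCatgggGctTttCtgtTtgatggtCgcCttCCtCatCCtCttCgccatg
ATP5G2: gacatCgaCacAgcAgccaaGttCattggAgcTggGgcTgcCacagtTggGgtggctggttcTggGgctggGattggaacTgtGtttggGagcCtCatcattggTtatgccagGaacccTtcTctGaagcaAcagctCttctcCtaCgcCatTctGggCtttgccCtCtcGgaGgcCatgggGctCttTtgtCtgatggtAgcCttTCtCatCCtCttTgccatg
ATP5G3: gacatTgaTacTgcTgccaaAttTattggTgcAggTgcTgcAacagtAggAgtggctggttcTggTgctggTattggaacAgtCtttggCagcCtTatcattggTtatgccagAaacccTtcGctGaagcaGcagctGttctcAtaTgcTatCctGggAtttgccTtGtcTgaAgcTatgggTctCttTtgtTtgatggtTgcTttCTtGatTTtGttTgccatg
ATP5G1 and ATP5G2 shared 200 of the 225 bases (88.9%), and ATP5G3 shared 183 (81.3%) with each of them. The longest run of identical bases between any annotated transcripts was 17 for ATP5G1 with ATP5G2, 11 for ATP5G1 with ATP5G3 and 17 for ATP5G2 with ATP5G3, against reads of 75 bases.

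The 3 genes with identical mature products differed in their pattern over the libraries. ATP5G1 (hg19 chr17:46970148-46973233, plus strand, 5 exons) had 119.6, 123 and 101 CPM with DMSO, 50 nM and 100 nM. It was low at 100 nM alone, at -0.24 [-0.32, -0.17] against 0.038 [-0.038, 0.11] at 50 nM. ATP5G2 (chr12:54058944-54070512, minus strand, 5 exons) had 232, 268 and 225. It stood out as high at 50 nM, by 0.21 [0.15, 0.26], the highest value of any member at that dose, and was -0.047 [-0.10, 0.0079] at 100 nM. ATP5G3 (chr2:176040986-176046490, minus strand, 3 exons) had 360.4, 341 and 304. It was lower at 50 nM, at -0.082 [-0.13, -0.037], and lowest at 100 nM, at -0.25 [-0.29, -0.20], the lowest value of any member at that dose, though those of ATP5G1, ATP5J, ATP5D, COX6B1 and UQCR10 lay within its interval.

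At each dose some of the 3 intervals did not overlap, ATP5G2 lying above ATP5G1 and ATP5G3 both at 50 nM and at 100 nM. The 3 genes summed had 16504, 16549 and 15170 counts, which was -0.179 [-0.21, -0.147] at 100 nM and 0.038 [0.007, 0.069] at 50 nM. Per kilobase, ATP5G3 had the lowest level of the 3 with DMSO, at 104 CPM against 185 for ATP5G1 and 180.3 for ATP5G2, its annotated length being 3482 bases against 647 and 1287. Of the summed subunit c counts, which are not divided by length and so compare libraries rather than genes, ATP5G3 held 50.6% with DMSO, 46.6% at 50 nM and 48.3% at 100 nM, ATP5G2 held 32.6%, 36.6% and 35.7%, and ATP5G1 held 16.8%, 16.8% and 16%.

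Against DMSO, the mitochondrially encoded partners had lower log2 fold changes than every nuclear subunit of the same complex. MT-CYB, the mitochondrial subunit of complex III, had 51953, 33712 and 27288 counts in the DMSO, 50 nM and 100 nM libraries. Each dose was below the one before it, at -0.59 [-0.61, -0.57] and -0.99 [-1.01, -0.96] against DMSO. In complex IV, MT-CO1, MT-CO2 and MT-CO3 lay between -0.97 and -0.31 at 100 nM, and in ATP synthase MT-ATP6 and MT-ATP8, which share 46 bases on the same strand, stood at -0.67 and -0.57. MT-CO3 was the lowest of complex IV, with 172103, 107789 and 91340 counts, whereas MT-CO1 had 348497, 279240 and 292296.

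Taking each mitochondrial gene with each nuclear gene of the same complex, the mitochondrial interval lay wholly below the nuclear one in 9 of 9 pairs of complex III, 33 of 33 of complex IV and 32 of 32 of ATP synthase, at 50 nM and at 100 nM alike. Between the doses it did so in 9 of 9, 14 of 33 and 19 of 32 pairs. The pairs of a complex share their genes and libraries. The same count was not made for nuclear genes outside these complexes. Against DMSO, the highest mitochondrial value was -0.311 at 100 nM and -0.246 at 50 nM. The 4971 nuclear genes that averaged 1000 counts or more had lower quartiles of -0.149 and -0.091. Most abundant nuclear genes thus also lay above the mitochondrial ones, and the pair counts do not set these complexes apart. Summed, the mitochondrial genes were -0.986 [-1.007, -0.965] in complex III, -0.47 [-0.476, -0.465] in complex IV and -0.659 [-0.675, -0.643] in ATP synthase at 100 nM. The summed nuclear genes of the same complexes were -0.045 [-0.061, -0.028], -0.071 [-0.088, -0.054] and -0.078 [-0.09, -0.067], and those of complex II, which has no mitochondrial gene, were -0.017 [-0.048, 0.013].

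**Figure D1:**
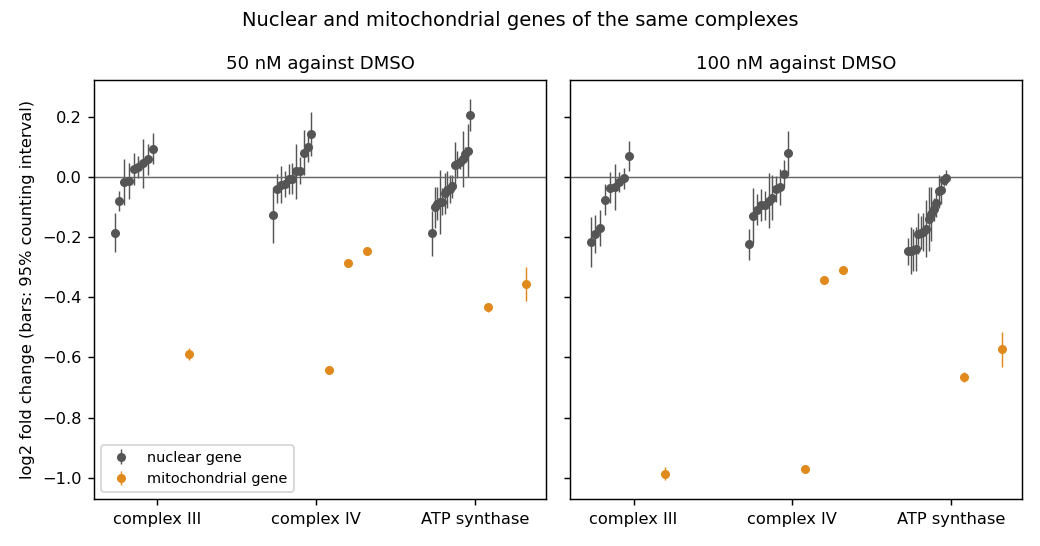
Log2 fold change (y axis) of nuclear (grey) and mitochondrial (orange) genes of complexes III and IV and ATP synthase at 50 nM and 100 nM against DMSO. Bars are 95% counting intervals; nuclear genes are in rising order within a complex, and every mitochondrial point lies below every nuclear point of its complex. Nuclear genes outside these complexes were not counted in this way.

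The 37 nuclear subunit genes of complex I, the entry point for electrons from NADH, had medians close to those of the 41. At 100 nM 17 were lower and 2 higher (45.9% and 5.41%, against 25.3% and 24% of all genes tested), with a median of -0.076. At 50 nM 4 were lower and 4 higher (10.8% each, against 18.5% and 18.6%), with a median of -0.016. Between the doses 16 were lower and 1 higher (43.2% and 2.7%, against 14.3% and 12.5%), with a median of -0.082. The difference between the 2 lists was not tested, since genes are not replicates.

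The other genes that serve these complexes went both ways. The pathway list held assembly factors, carriers, cristae and supercomplex factors, regulators and further subunits, and 66 of its genes were tested. At 100 nM 22 were lower and 23 higher (33.3% and 34.8%, against 25.3% and 24% of all genes tested), with a median of 0.046. At 50 nM 15 were lower and 14 higher (22.7% and 21.2%, against 18.5% and 18.6%), with a median of 0.044. Between the doses 15 were lower and 6 higher (22.7% and 9.09%, against 14.3% and 12.5%), with a median of -0.024. Past a log2 fold change of 0.32 at 100 nM lay 4 lower and 6 higher, 15.2% of the list against 29.9% of all genes.

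The 40 assembly factors gave 13 lower and 12 higher at 100 nM (32.5% and 30%, against 25.3% and 24% of all genes tested). Their median was 0.042, where the 41 subunits had -0.079. For complex II, 2 of 4 factors were lower and 1 higher. For complex III it was 1 of 6 and 3, for complex IV 8 of 24 and 7, and for ATP synthase 2 of 6 and 1. C6orf57, now SDHAF4, which helps to place the flavin-bearing SDHA into complex II, had 312, 375 and 473 counts. It went up from DMSO to 50 nM to 100 nM, by 0.54 [0.33, 0.75] at 100 nM, the highest value of the list. COX18, which threads a mitochondrially made complex IV subunit through the inner membrane, had 542, 643 and 782 counts in the same order. It rose by 0.47 [0.31, 0.63] at 100 nM.

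In complex III assembly, TTC19 had 1007, 1187 and 1339 counts and C6orf125, now UQCC2, a factor for cytochrome b synthesis, had 1510, 1796 and 1999. Both were higher at each dose than with DMSO, at 100 nM by 0.35 [0.24, 0.47] and 0.35 [0.25, 0.45]. Of the 8 complex IV factors lower at 100 nM, 3 were past a log2 fold change of 0.32. CCDC56, now COA3, which acts with newly made COX1 protein, had 666, 580 and 520 counts and was -0.41 [-0.58, -0.25]. PET100 had 235, 231 and 190 counts and was -0.36 [-0.65, -0.082], low at 100 nM alone. C16orf61, now CMC2, had 818, 637 and 673 counts and was -0.34 [-0.49, -0.19], low at both doses.

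**Figure D2:**
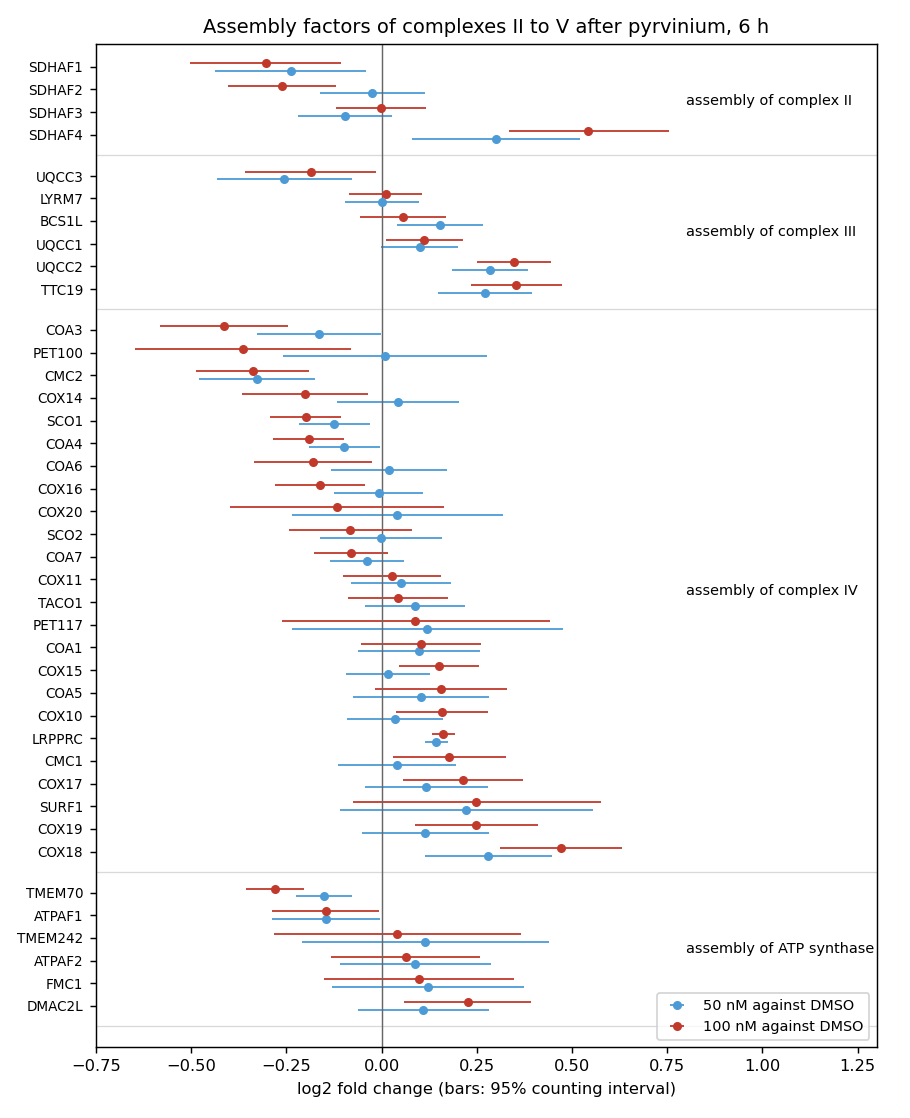
Log2 fold change (x axis) of the 40 assembly factor genes (y axis, grouped by complex, current symbols) at 50 nM (blue) and 100 nM (red) against DMSO, with 95% counting intervals as bars and no replicates. The genes spread to both sides of 0, from -0.41 for COA3 to 0.54 for SDHAF4 at 100 nM. There 13 were lower and 12 higher (32.5% and 30%, against 25.3% and 24% of all genes tested).

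Among the carriers of adenine nucleotides and phosphate, which feed ATP synthase, 3 of 4 were higher at 100 nM and 0 lower. Over all genes tested 24% were higher and 25.3% lower, the shares to read the groups of this paragraph against. SLC25A6, an ADP/ATP carrier, had 20156, 23344 and 27623 counts, more at each dose, and was 0.40 [0.37, 0.42] at 100 nM. Of the 8 regulators of nuclear respiratory genes tested, 2 were lower and 3 higher. PPRC1, a coactivator of such genes, had 2717, 3254 and 3582 counts and was higher by 0.34 [0.27, 0.41]. Its relative PPARGC1A had 0, 1 and 1 counts. Of 10 supercomplex and cristae genes, 3 were lower and 5 higher. APOO, a cristae factor, had 391, 378 and 312 counts and was low at 100 nM, at -0.38 [-0.60, -0.16]. The 3 further subunits of complex IV and ATP synthase outside the list of 41, NDUFA4, USMG5 and MP68, were all lower at 100 nM, with a median of -0.191. HCCS, which attaches heme to cytochrome c and cytochrome c1, stood at -0.29.

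Some members have near-identical copies or share exons with another gene. SDHA summed with its 4 listed pseudogenes was -0.003 [-0.049, 0.042] at 100 nM and 0.089 [0.044, 0.134] at 50 nM, close to SDHA alone. ATP5E with its copy was -0.19 [-0.244, -0.137] at 100 nM, ATP5L with its copy -0.19 [-0.259, -0.122] and UQCRB with its copy -0.019 [-0.052, 0.014]. The copy of SDHC had 1 count in each library and that of CYCS had 0. CYC1 shares 326 exon bases (26.9%) with a gene on the opposite strand that had 13 to 24 counts, ATP5F1 shares 88 (4.16%) with WDR77, which had 2436 to 2480, and SDHC shares 21 (0.735%) with CFAP126, which had 0 to 1.

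Many nuclear respiratory genes are known to carry sites for the transcription factors NRF1 and NRF2, the latter being GABP of the ETS family, near their starts, so the promoters were searched for such letters. RefSeq promoter windows on GRCh38.p14, from 250 bases before to 50 bases after a start, were at hand for 33 of the 41 members and for 9705 of the genes tested. On both strands the full NRF1 core, which is GCATGCGC with GC before it, was found in 2 of 33 members (6.06%), against 2.93% of the tested genes and 1.24% of all 35116 windows. The short form GCATGCGC alone, which lies within the full core, was found in 9 members (27.3%), against 7% and 3.05%. The ETS core CCGGAAGT was found in 9 members (27.3%), against 10.6% and 4.14%. A match is a description of the letters and does not show binding, and no test was made. The 150 bases before the start of 1 gene of each complex are shown 5′ to 3′ on the gene's strand as examples of these matches, with the motif letters in capitals.
SDHD, chr11:112086723-112086872, plus strand: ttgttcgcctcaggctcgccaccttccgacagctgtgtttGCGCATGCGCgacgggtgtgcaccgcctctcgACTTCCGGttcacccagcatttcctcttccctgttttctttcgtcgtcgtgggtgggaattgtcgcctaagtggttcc
UQCRH, chr1:46303548-46303697, plus strand: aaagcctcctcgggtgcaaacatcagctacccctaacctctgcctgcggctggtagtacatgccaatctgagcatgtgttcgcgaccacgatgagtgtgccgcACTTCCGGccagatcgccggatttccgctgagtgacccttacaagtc
COX5B, chr2:97645912-97646061, plus strand: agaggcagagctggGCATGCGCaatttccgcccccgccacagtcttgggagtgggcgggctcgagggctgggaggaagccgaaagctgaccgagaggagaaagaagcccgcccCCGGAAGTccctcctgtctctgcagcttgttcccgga
ATP5I, chr4:674277-674426, minus strand: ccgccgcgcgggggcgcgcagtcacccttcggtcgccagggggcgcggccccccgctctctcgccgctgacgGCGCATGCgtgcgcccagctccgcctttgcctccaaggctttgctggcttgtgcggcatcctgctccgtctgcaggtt
SDHD holds the full NRF1 core and an ETS core on the other strand, UQCRH an ETS core on the other strand, COX5B the short NRF1 form and an ETS core, and ATP5I the short NRF1 form on the other strand. Genes with matches were spread along the list: at 100 nM SDHD stood at -0.013 and COX5B at -0.034, whereas UQCRH stood at -0.17 and ATP5I at -0.17.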

How the data were processed

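RNA of Molm13 cells was prepared by the authors with a strand-specific mRNA kit, read as paired reads of 75 bases and aligned to hg19 with Rsubread. What they deposited are raw read counts per Entrez gene, in whole numbers. The strand setting, the treatment of multi-mapping reads and the versions are not given in the sources used here. Conditions were taken from the sample labels, which write the higher dose once as 100M, where the design text and the paper have 100 nM. A deposited table of the authors' own comparisons, with posterior probabilities, fold changes and means, was not used.

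Scaling was by TMM in edgeR 4.0.16 (R 4.3.3). A filter of at least 10 counts in 1 or more libraries left 12879 genes. Each pair of libraries was compared by the log2 ratio with 0.5 counts added and a 95% exact (Clopper-Pearson) interval (scipy 1.17.1), and separately by at least 2-fold with a two-sided exact binomial test and Benjamini-Hochberg adjustment over all genes (adjusted p at most 0.05). Totals of 22677038 to 24075123 counts set the precision, and 3 counts are 1.25e-05% to 1.32e-05% of a library. The procedure was run on simulated counts with counting error alone, the error that the intervals are built for. There 95.2% to 95.8% of the intervals held the true value. Spread between cultures was not simulated.

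The members, the gene lists, the roles and the motifs were chosen with earlier results of these data known. Named with values in every library are complex II, CYCS, the 3 subunit c genes, the 3 lowest and 3 highest at 100 nM in each of complexes III, IV and V, members past a log2 fold change of 0.32, and up to 10 pathway genes past it at 100 nM with at least 50 counts. Other genes were named after their values were seen. Of the pathway symbols 73 of 74 were matched. Coordinates (hg19) come from the deposited count tables, and all 41 spans overlapped GENCODE 44 on GRCh37. Exon numbers count the segments listed with the counts.

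Tried as alternatives were size factors from DESeq2 1.42.0, total counts as library size, TMM with mitochondrial genes left out, filters of 1 and 100 counts, 5 counts added, centring on genes of like length and level, the exact test of edgeR with a biological coefficient of variation assumed at 0.05 or 0.1, and a linear dose trend by quasi-likelihood.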

Additional observations from a re-analysis of the deposited data

Results flagged for a closer look

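COX6B1, a structural subunit of complex IV, differed from DMSO in opposite directions at the 2 doses. Its log2 fold change was 0.099 [0.05, 0.15] at 50 nM and -0.22 [-0.28, -0.17] at 100 nM, and the doses differed by -0.32 [-0.37, -0.27], the largest difference of a member in any comparison. With 1 library per dose this difference was compared on counting error alone and was not tested against the spread between cultures. Opposite calls at the 2 doses were not counted over all genes tested, so how rare they are is not known.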

How the results depend on the processing

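No paired analysis was possible because each condition has 1 library, and for the same reason no library could be left out. The other settings were DESeq2 size factors, total counts, TMM without mitochondrial genes, other filters and 5 counts added. Under them the counts of members called stayed within 1.5 times their value. The medians over the members and complexes moved by less than the median half-width of a member's counting interval, about 0.055. That margin is wider than some of the medians, such as -0.017 for complex II at 100 nM. A filter of 100 counts left 92, 24 and 8 of all genes past 2-fold at 100 nM, at 50 nM and between the doses, where the main filter gave 283, 123 and 64; it tests fewer genes.

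Centring on genes of like length and level moved the most. At 100 nM against DMSO it gave 13 members lower (from 23) and 7 higher (from 2), with medians of -0.019 over all members (from -0.079), 0.041 for complex II (from -0.017), -0.008 for complex IV (from -0.079) and -0.066 for ATP synthase (from -0.155). Between the doses it gave 16 lower (from 28) and 3 higher (from 1), with medians of 0.02 for complex III (from -0.037), 0.008 for complex IV (from -0.055) and -0.052 for ATP synthase (from -0.115). It changed the sign of 25 of 123 single values, 18 of them called neither before nor after. The other 7 were CYC1 (0.056), ATP5A1 (0.049) and ATP5B (0.04) at 100 nM, and CYC1 (0.026), COX4I1 (0.053), COX6C (0.047) and COX7C (0.008) between the doses. By its construction this setting takes away what short abundant genes share.

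With a biological coefficient of variation assumed at 0.05 or 0.1, the exact test of edgeR called 0 members lower and 0 higher in each of the 3 comparisons after Benjamini-Hochberg adjustment. At 0.05 it gave, with an unadjusted p, 5 members lower at 100 nM, 5 between the doses and 0 at 50 nM (27.3%, 7.09% and 14.8% of all genes, in either direction), and adjusted it called 1935, 71 and 428 of all genes; at 0.1 it called 244, 16 and 36 of all genes and, with an unadjusted p, 0 members (11.3%, 2.08% and 4.56% of all genes). The spread between cultures was not measured, so these values show only what such a spread would leave. The linear dose trend, with 1 residual degree of freedom, called 4 members lower and 0 higher by the quasi-likelihood test of edgeR (11 lower and 0 higher with an unadjusted p), and 2633 of all genes (4262, or 33.1%, with an unadjusted p). The 4, named after their values were seen, were ATP5J (adjusted p = 0.0186), ATP5G3 (0.0203), ATP5D (0.0231) and ATP5G1 (0.045). Over the scaling, filter, added-count and centring settings, 791 of 861 single-gene values kept both sign and call, and 35 changed sign, 10 of them outside the centring, where none was called before or after. Of the rest, 28 lost their call and 7 gained one.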
